A study of Mus musculus with 3 samples.

Results

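The genes described here are 7 Wnt ligands (*Wnt2*, *Wnt4*, *Wnt5a*, *Wnt5b*, *Wnt6*, *Wnt10b* and *Wnt11*) and 3 R-spondins (*Rspo1*, *Rspo2* and *Rspo3*), taken by symbol from the 32285 genes counted. They were followed in 31905 inguinal stromal vascular fraction (SVF) cells, the barcodes with at least 2000 unique molecular identifiers (UMIs, which count captured RNA molecules) and at most 10% mitochondrial UMIs. The SVF is what remains of adipose tissue after digestion once the floating adipocytes are taken off, and CD45-positive leukocytes and DAPI-positive dead cells had been removed by cell sorting. The cells came from 4-week-old wild-type (WT) mice, from mice with a global deletion of matrix Gla protein (*Mgp*-KO), and from *Mgp* flox/flox mice carrying a *Pdgfra*-Cre transgene (*Pd*-KO), in which *Mgp* is deleted where the *Pdgfra* promoter has driven Cre. Each genotype was 1 library of cells pooled from mice of both sexes, so there were no replicates and no p-value was computed. The intervals given are 95% intervals of counting error alone and do not hold the spread between mice. Both knockouts were compared with the same WT library, which carried neither the floxed allele nor the transgene.

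Wnt proteins are lipid-modified secreted ligands. Some signal mainly through Frizzled and LRP receptors to β-catenin, which activates target genes through TCF/LEF factors, and others, such as WNT5A and WNT11, act mostly through β-catenin-independent routes. R-spondins bind LGR receptors and the E3 ligases RNF43 and ZNRF3, which otherwise remove Frizzled from the cell surface, and so raise the response to Wnt ligands. In adipose tissue, WNT10B is known as an inhibitor of adipogenesis in progenitors, and in the mammary gland, whose epithelium lies within the inguinal fat pad of females, WNT4 is a local mediator of progesterone.

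The libraries held 10511 WT, 12575 *Mgp*-KO and 8819 *Pd*-KO cells, with median depths of 12802, 6445 and 8269 UMIs per cell. *Mgp* itself was at 483 CPM (UMIs of a gene per 1000000 UMIs of the same cells) in WT stromal cells, 1.87 in *Mgp*-KO and 1.64 in *Pd*-KO, and in vessel cells at 460.1, 2.05 and 159.6. The libraries thus carried the deletion named by their labels. Cells called female (with *Xist* and without Y-linked RNA) made up 35.1%, 60.6% and 32.5% of the WT, *Mgp*-KO and *Pd*-KO libraries, and any 2 libraries shared 35 to 40 barcodes. The headers of the count files name a different Cell Ranger version for the WT library than for both knockout libraries, and genes with a long genomic span were higher in the knockouts: in stromal cells the median log2 ratio over WT was 1.65 in *Mgp*-KO and 1.91 in *Pd*-KO among the 10% of genes with the longest span, against -0.18 and -0.35 in the 10% with the shortest. Whether this came from the counting of intronic reads was not tested. Ratios are therefore given with the median of all genes taken off, and beside it, as the span-centred value, with the median of the 200 genes nearest in span taken off. This matters most for *Rspo2* (150.0 kb), *Wnt5b* (111.8 kb) and *Rspo3* (83.5 kb), while the other members span 7.4 to 41.6 kb.

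Cells were clustered and named from marker genes. Stroma (cells with *Pdgfra* and collagen genes) made up 7677 WT, 11216 *Mgp*-KO and 7115 *Pd*-KO cells, vessels 1967, 513 and 1393, and mammary epithelium 412, 763 and 150. The class that carries most of what follows was interstitial progenitor-like, named from *Dpp4*, *Pi16*, *Sema3c* and related genes: 2268 WT cells (21.6% of the library), 5262 *Mgp*-KO cells (41.8%) and 3938 *Pd*-KO cells (44.7%). A *Dpp4* UMI was found in 89.6%, 88.3% and 96.5% of these cells, and an endothelial *Pecam1* UMI in 5.34%, 0.760% and 2.29%. Levels are CPM of a class; since they are not scaled by transcript length, they are compared between classes and libraries within a gene, not between genes.

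*Wnt2*, *Wnt10b* and *Wnt11* had their largest share of UMIs in these progenitor-like cells and were higher together in one cluster of them in the *Pd*-KO library, so their promoters are shown (RefSeq, GRCm38.p6, 250 bases before to 50 after the start, in the direction of the gene). RefSeq promoters were found for 7 of the 10 members. *Wnt2* (chr6:18030396-18030695, minus strand) and *Wnt10b* (chr15:98778101-98778400, minus strand) held neither the TCF/LEF core CTTTGA, searched on both strands, nor the TATA box TATAAA. In *Wnt11* (chr7:98834862-98835161, plus strand) capitals mark 1 core, on the reverse strand and so written TCAAAG, at position -50, and 1 TATA box at -29. A second *Wnt11* promoter of the table (chr7:98838595-98838894, plus strand) held neither. *Wnt5b* was also higher in that *Pd*-KO cluster, but its promoters are not printed. Of these, chr6:119449337-119449636 (minus strand) held 1 core, at -71, and no TATA box. The other *Wnt5b* promoters held neither. Of 32851 mouse promoters of this length, 16.0% held the core and 13.6% the TATA box. The 3 printed promoters were all richer in G and C (65.7%, 66.3% and 71.3%) than the median promoter (52.7%), with 27, 18 and 45 CpG dinucleotides.
*Wnt2*: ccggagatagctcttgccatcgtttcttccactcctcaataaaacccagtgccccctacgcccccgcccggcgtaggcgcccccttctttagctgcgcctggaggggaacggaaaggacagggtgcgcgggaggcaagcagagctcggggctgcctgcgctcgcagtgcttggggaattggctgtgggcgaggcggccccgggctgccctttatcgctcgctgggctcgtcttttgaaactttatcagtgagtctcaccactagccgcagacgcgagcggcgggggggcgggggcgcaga
*Wnt10b*: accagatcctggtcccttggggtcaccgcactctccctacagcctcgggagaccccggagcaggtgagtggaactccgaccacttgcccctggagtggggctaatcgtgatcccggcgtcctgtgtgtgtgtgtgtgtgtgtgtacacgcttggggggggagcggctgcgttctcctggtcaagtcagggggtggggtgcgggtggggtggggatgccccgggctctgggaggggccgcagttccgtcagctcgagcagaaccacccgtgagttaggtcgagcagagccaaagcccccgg
*Wnt11*: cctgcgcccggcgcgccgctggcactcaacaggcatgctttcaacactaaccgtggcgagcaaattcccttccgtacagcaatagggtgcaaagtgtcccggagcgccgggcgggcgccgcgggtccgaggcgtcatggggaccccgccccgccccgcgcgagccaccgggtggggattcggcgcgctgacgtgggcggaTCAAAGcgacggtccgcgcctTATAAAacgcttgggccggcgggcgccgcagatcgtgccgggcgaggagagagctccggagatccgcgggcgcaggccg

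*Wnt2*, a ligand of the β-catenin branch, was above all a stromal gene. In the interstitial progenitor-like cells it was at 122 CPM in WT (118 to 126), 135 in *Mgp*-KO (131 to 139) and 219 in *Pd*-KO (215 to 224). The *Pd*-KO level was the highest and its interval did not meet the others. A *Wnt2* UMI was found in 61.5%, 49.1% and 75.2% of the progenitor-like cells, at median depths of 14011.5, 6317 and 9834 UMIs, and after thinning every cell to 2000 UMIs in 20.1%, 22.2% and 33.8%. As a measure of background, capillary endothelial-like cells gave 3.16%, 0% and 1.24% (median depths 4691.5, 2817 and 3287), and luminal progenitor-like cells of the epithelium had no *Wnt2* UMI in any library. Within the stroma the next levels were those of the *Col18a1* stromal-like cells, at 53.2, 85.2 and 61.0 CPM, and of 2 unnamed clusters led by *Ptgs2* and *Gm17268* (68.8, 58.2 and 86.5) and by *Sntg1* and *Opcml* (79.2, 56.4 and 107). The adipogenic classes were lowest: preadipocyte-like cells stood at 4.15, 7.99 and 10.4 CPM and early adipocyte-like cells at 7.90, 11.0 and 18.1. Free *Wnt2* RNA, measured in barcodes with too few UMIs for a cell, was at 14.8, 65.8 and 73.0 CPM. The adipogenic levels lay below the free level in each library. So did the *Col18a1* stromal-like level in *Pd*-KO and the levels of both unnamed clusters in *Mgp*-KO. The part of free RNA in these levels was not tested. Stroma gave 94.7%, 98.1% and 96.1% of all *Wnt2* UMIs while holding 79.3%, 88.9% and 86.3% of UMIs of all genes.

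*Wnt10b* was concentrated in progenitor-like stroma. Its level in the interstitial progenitor-like class was 16.3 CPM in WT (14.9 to 17.7), 14.0 in *Mgp*-KO (12.8 to 15.3) and 23.3 in *Pd*-KO (21.8 to 24.9), so *Pd*-KO was again highest. Free RNA, measured in barcodes of 10 to 100 UMIs, had *Wnt10b* at 0.870, 6.33 and 26.6 CPM (21.4 to 32.8 in *Pd*-KO), and its part in the *Pd*-KO level was not tested. In the same *Pd*-KO library vessels as a whole had 4.57 CPM of *Wnt10b*, against 2.07 in WT. The vessel cluster led by *Rgs5* and *Rbp7* had 14.6 CPM, against 5.42 in WT. It held 35 of the 36 *Wnt10b* UMIs of the *Pd*-KO vessels. This cluster was left unnamed, since its leading genes were both mural (*Acta2*, *Tagln*, *Myh11*) and endothelial (*Cdh5*, *Flt1*, *Gpihbp1*). Its median depth in *Pd*-KO was 12610.5 UMIs, against 4318 for vessels as a whole. The share of doublets in it is not given. The capillary endothelial-like cells had no *Wnt10b* UMI in *Pd*-KO, which allows up to 3.12 CPM at 3 counts. In WT the small *Sntg1*/*Opcml* cluster, which also carries *Dpp4* (74.8% of WT cells), was higher still at 39.6 CPM (27.2 to 55.6), against 4.24 and 12.1 in *Mgp*-KO and *Pd*-KO. The cells of this cluster were unlike between libraries, since a *Sntg1* UMI was found in 9.43%, 51.4% and 0.893% of them, and without Harmony 319 *Pd*-KO cells formed a cluster apart, led by *Gm8739* and *Ano3*, with 0 WT and 18 *Mgp*-KO cells. Preadipocyte-like cells held 0.392, 0 and 0.823 CPM, *Areg*-like cells (*F3*-positive stroma) 0.975, 1.10 and 2.49, and *Col18a1* stromal-like cells 0.977, 0.437 and 0.488. *Wnt10b* was thus far lower in these 3 classes than in the progenitor-like cells, in each library. Thinned to equal depth, 3.88%, 2.79% and 4.29% of the progenitor-like cells kept a *Wnt10b* UMI, and the intervals of WT (3.12 to 4.76) and *Pd*-KO (3.68 to 4.97) overlapped.

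*Wnt11* was spread more widely over the stroma. Interstitial progenitor-like cells had 15.6 CPM in WT (14.2 to 17.0), 21.0 in *Mgp*-KO (19.5 to 22.5) and 35.0 in *Pd*-KO (33.2 to 36.9), and the 3 intervals were apart. Preadipocyte-like cells stood at 7.46, 13.0 and 11.7 CPM and *Areg*-like cells at 3.46, 10.8 and 7.25. Free *Wnt11* was at 5.22, 15.2 and 16.7 CPM, above both of these classes in the knockouts, and its part in their levels was not tested. The *Ccl21a*/*Ccl19* cluster, which has *Pdgfra* in 81.5% of WT cells and the lymphatic factor *Prox1* in 1.37%, had 17.7, 35.0 and 37.4 CPM from 26, 5 and 5 UMIs. Among vessels, the WT lymphatic endothelial-like cells reached 21.8 CPM (11.6 to 37.3) on 13 UMIs, whereas the 7 *Mgp*-KO and 19 *Pd*-KO lymphatic cells had none, which allows up to 58.9 and 31.4 CPM at 3 counts. No difference of lymphatic *Wnt11* was detectable at that depth.

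*Wnt5a*, the ligand best known for acting through ROR receptors, had its higher levels in both stromal and epithelial classes. In the stroma, *Areg*-like cells had 80.5 CPM in WT (75.4 to 85.9), 72.7 in *Mgp*-KO (65.1 to 81.0) and 111 in *Pd*-KO (101 to 121). Interstitial progenitor-like cells followed with 63.6, 57.5 and 66.6 CPM, preadipocyte-like cells with 61.7, 47.4 and 78.5, and *Col18a1* stromal-like cells with 35.4, 30.1 and 54.3. In WT, progenitor-like and preadipocyte-like cells differed by little, unlike for *Wnt2*, *Wnt10b* and *Wnt11*. The highest WT level was in the epithelium, in the hormone-sensing luminal-like cells, at 119.9 CPM (111 to 129), with 77.8 in *Mgp*-KO (70.1 to 86.1) and 92.9 in *Pd*-KO (76.3 to 112). Basal myoepithelial-like cells had 78.0, 46.7 and 56.0 CPM, luminal progenitor-like cells 14.1, 6.09 and 0, and capillary endothelial-like cells 2.82, 0 and 1.04. Free *Wnt5a* was at 20.9, 40.5 and 53.8 CPM. The luminal progenitor-like and capillary levels lay below it in each library, as did the *Col18a1* stromal-like level in *Mgp*-KO. In the knockouts the basal level was near it, and its part in these levels was not tested.

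*Wnt4* was a gene of the epithelium. Hormone-sensing luminal-like cells, the class that carries estrogen and progesterone receptors, had 182 CPM in WT (171 to 192), 209 in *Mgp*-KO (196 to 222) and 142 in *Pd*-KO (121 to 165), with a UMI in 77.4%, 69.8% and 68.8% of cells. After thinning these shares were 31.5%, 34.2% and 30.1%, with overlapping intervals. Epithelium gave 84.1%, 91.9% and 64.5% of the *Wnt4* UMIs while holding 6.49%, 7.94% and 2.28% of all UMIs. Stromal cells stood at 1.94, 1.14 and 1.46 CPM. These were below the free RNA of each library (*Wnt4* in barcodes of 10 to 100 UMIs, too few for a cell: 6.09, 21.5 and 2.09 CPM). In *Pd*-KO the stromal level lay within the interval of the free level (0.842 to 4.31). The part of free RNA in the stromal levels was not tested.

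*Wnt5b*, a close relative of *Wnt5a*, led in a different epithelial class, the luminal progenitor-like cells, known by *Kit* (85.2%, 72.1% and 80.0% of cells) and *Elf5* (91.8%, 85.6% and 65.0%). It was at 59.8 CPM in WT (46.8 to 75.3), 234 in *Mgp*-KO (202 to 269) and 438 in *Pd*-KO (344 to 550.4), over 61, 104 and 20 cells. All 3 intervals were apart, and a UMI was found in 59.0%, 71.2% and 80.0% of cells. After thinning the share was 14.8% in WT, 40.4% in *Mgp*-KO and between 27.2% and 72.8% (its interval) in *Pd*-KO. The log2 ratio over WT was 1.88 (1.48 to 2.29) in *Mgp*-KO and 3.03 (2.54 to 3.51) in *Pd*-KO, and 1.25 and 2.25 when centred on genes of like span. *Wnt4* in the same cells went the other way, at 109.6 CPM in WT (132 UMIs), 41.4 in *Mgp*-KO (34 UMIs) and 17.8 in *Pd*-KO (3 UMIs). Its ratios were -1.49 (-2.08 to -0.94) and -2.47 (-4.77 to -0.89), with span-centred values of -1.40 and -2.51. Only 24.6%, 15.4% and 10.0% of the cells held those *Wnt4* UMIs, and the thinned shares (9.84%, 4.81% and 10.0%) did not follow the order of the levels, so no order is read from them. Basal myoepithelial-like cells had 15.2, 59.7 and 72.8 CPM of *Wnt5b* from 8, 55 and 13 UMIs. The WT and knockout epithelium also differed in size, with 412, 763 and 150 cells, and in the share of female cells of the libraries, and the part of either in these ratios was not tested. Of all *Wnt5b* UMIs, stroma gave 55.8%, 60.5% and 84.9% while holding 79.3%, 88.9% and 86.3% of UMIs of all genes. Its interstitial progenitor-like cells gave 39.8%, 42.1% and 67.8% while holding 22.3%, 40.2% and 52.3%. Epithelium gave 22.7%, 36.8% and 9.02% while holding 6.49%, 7.94% and 2.28%. Vessels gave 20.7%, 2.46% and 5.85% while holding 11.6%, 2.72% and 10.3%. Of the 93 in WT vessels, 28 lay in smooth muscle-like cells and 27 in the *Rgs5*/*Ctnna3* cluster.

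**Figure D1:**
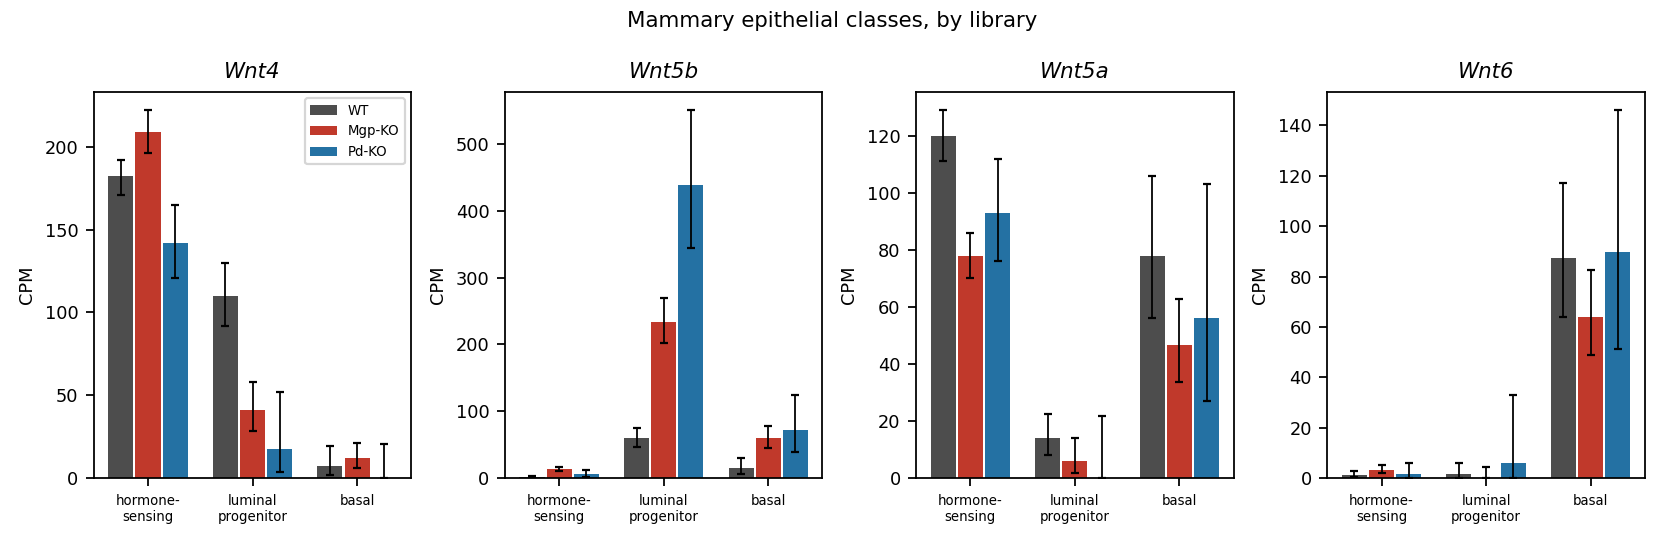
Levels of *Wnt4*, *Wnt5b*, *Wnt5a* and *Wnt6* in the 3 named epithelial classes, as bars in CPM with 95% Poisson intervals, coloured by library. *Wnt4* is highest in hormone-sensing luminal-like cells in each library (182, 209 and 142 CPM in WT, *Mgp*-KO and *Pd*-KO), and *Wnt5b* in luminal progenitor-like cells goes from 59.8 in WT to 234 and 438 in the knockouts.

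*Wnt6* was highest in glial and basal epithelial cells. Schwann-like cells, the glia of peripheral nerve (*Sox10* in 79.0%, 45.0% and 69.2%), had 153 CPM in WT (132 to 177), 92.2 in *Mgp*-KO (44.2 to 169) and 143 in *Pd*-KO (98.4 to 201), over 167, 20 and 52 cells, and these intervals overlapped. Basal myoepithelial-like cells followed with 87.5, 64.1 and 89.6 CPM, also with overlapping intervals. Progenitor-like stroma was at 0.433, 0.111 and 0 CPM and capillary endothelial-like cells at 0, far below either. Among the named stromal classes *Areg*-like cells were highest in WT and *Pd*-KO. They had 9.04 CPM in WT (7.37 to 11.0), 7.25 in *Mgp*-KO (4.99 to 10.2) and 13.1 in *Pd*-KO (9.98 to 17.0), from 102, 33 and 58 UMIs. Cycling-like cells had 7.84 in *Mgp*-KO, and preadipocyte-like cells had 1, 2 and 0 UMIs. The *Ccl21a*/*Ccl19* cluster, counted outside the stroma but with *Pdgfra* in 81.5% of WT cells, was at 22.4 (15.4 to 31.5), 42.0 (15.4 to 91.3) and 7.47 CPM. These came from 33, 6 and 1 UMIs. Stroma as a whole had 1.84, 1.44 and 1.27 CPM and gave 40.9%, 54.8% and 61.3% of the *Wnt6* UMIs, while holding 79.3%, 88.9% and 86.3% of UMIs of all genes. Free RNA had 42.6, 3.80 and 0 CPM of *Wnt6*. Its part in the WT levels of the stroma and of the *Ccl21a*/*Ccl19* cluster was not tested.

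Among the R-spondins, *Rspo1* was highest in stromal classes other than the progenitor-like cells. *Areg*-like cells had 12.9 CPM in WT (10.8 to 15.1), 18.5 in *Mgp*-KO (14.7 to 22.9) and 19.7 in *Pd*-KO (15.8 to 24.3), and *Col18a1* stromal-like cells had 10.3, 11.0 and 9.91. That class joined unlike clusters: the one led by *Hmcn1* and *St6galnac3* had 25.1 (22.0 to 28.5), 15.8 and 21.2 CPM, in WT above the *Areg*-like cells, whereas the one led by *Fgf10* and *Itga2b* had 1.09, 0.463 and 0 and the one led by *Itga2b* and *Hc* 1.42, 11.3 and 5.05. Interstitial progenitor-like cells had 1.33, 1.78 and 1.10 CPM and preadipocyte-like cells 0.841, 0.998 and 1.15. The *Ccl21a*/*Ccl19* cluster had 17.0, 76.9 and 44.8 CPM, from 25, 11 and 6 UMIs. No *Rspo1* UMI was found in the capillary endothelial-like or Schwann-like cells.

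*Rspo2* was rare in WT stroma and more frequent in the knockouts. The interstitial progenitor-like class held 35, 225 and 377 UMIs, or 1.08 CPM in WT (0.753 to 1.5), 6.25 in *Mgp*-KO (5.46 to 7.13) and 9.44 in *Pd*-KO (8.52 to 10.4). Few cells carried them, 1.37%, 2.89% and 4.95%, or 0.176%, 1.08% and 1.45% after thinning, and single cells held up to 2, 8 and 18 UMIs. In the *Sntg1*/*Opcml* cluster, whose cells were unlike between libraries as given above, the levels were 0, 13.6 and 73.0 CPM from 0, 32 and 109 UMIs. The count of 0 in WT allows up to 3.60 CPM at 3 counts. In the WT library *Rspo2* was highest outside the stroma, at 59.5 CPM (38.1 to 88.5) in 93 neuron-like cells, 18 of which carried it. The 8 and 11 knockout cells placed in that cluster had neither *Rspo2* nor *Nefl* and are not compared.

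*Rspo3* was highest, among the named classes of the WT library, in venular endothelium. Venular endothelial-like cells (*Selp* in 61.1%, 78.6% and 71.4%) had 33.9 CPM in WT (23.5 to 47.4), 31.0 in *Mgp*-KO (6.40 to 90.7) and 39.8 in *Pd*-KO (21.2 to 68.1), from 34, 3 and 13 UMIs, whereas capillary endothelial-like cells had no UMI in any library, which allows up to 2.82 CPM in WT at 3 counts. In the stroma, interstitial progenitor-like cells led the named classes with 12.5 (11.4 to 13.8), 9.64 (8.65 to 10.7) and 9.62 CPM (8.68 to 10.6). *Areg*-like cells had 5.32, 7.03 and 5.66 CPM and preadipocyte-like cells 2.86, 1.60 and 1.65. The vessels gave 9.42%, 1.09% and 5.43% of the *Rspo3* UMIs while holding 11.6%, 2.72% and 10.3% of UMIs of all genes. In WT the stroma gave 84.6% while holding 79.3%, and its progenitor-like cells gave 50.3% while holding 22.3%.

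**Figure D2:**
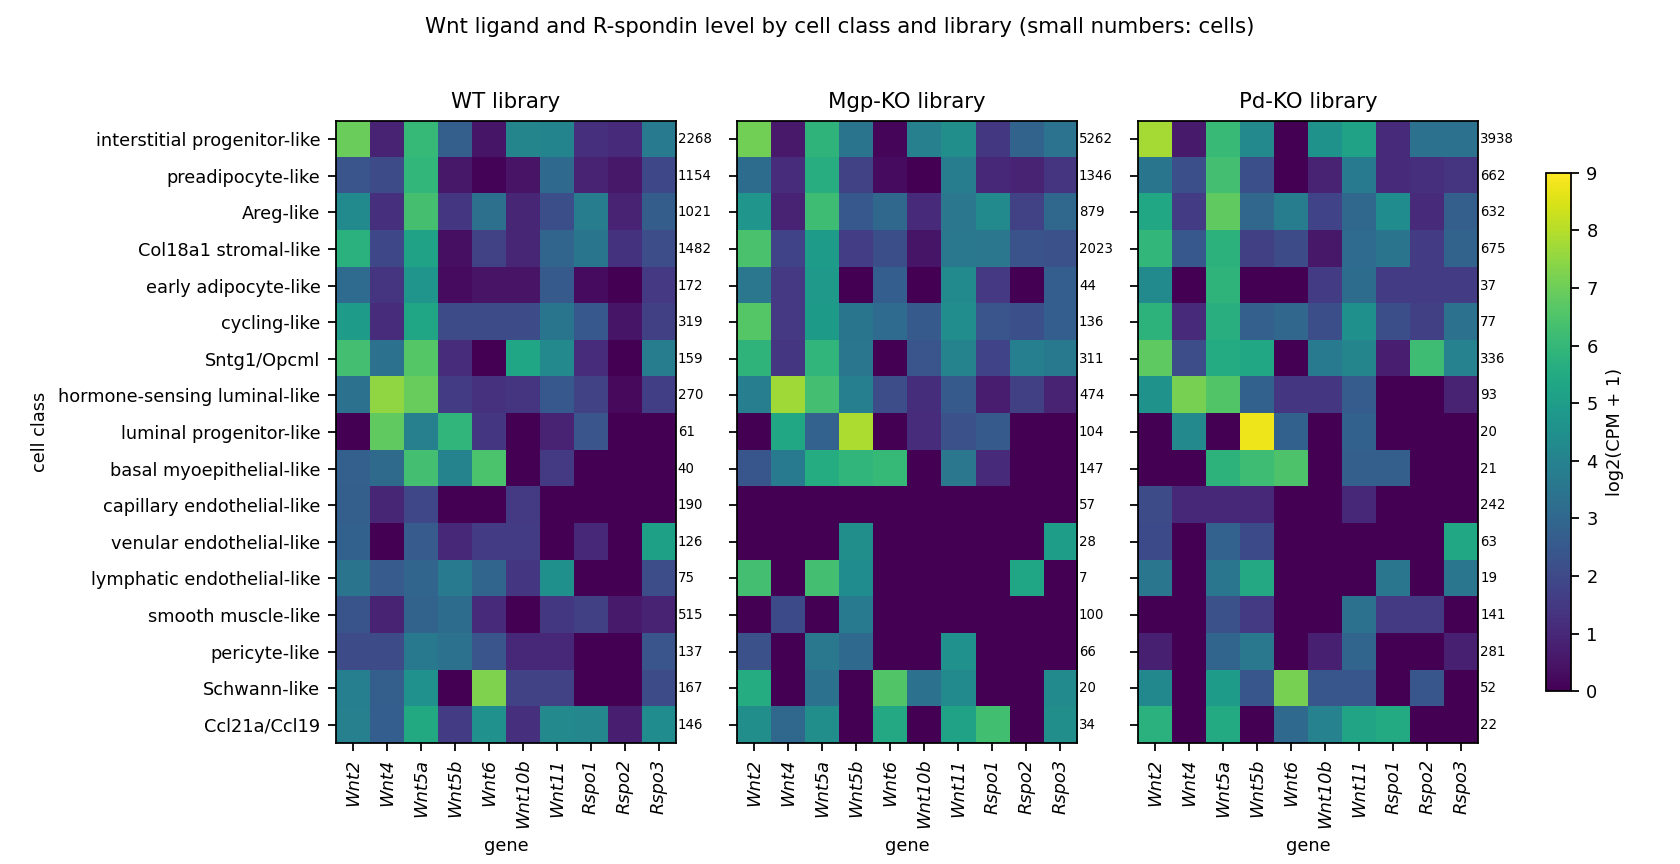
Level of each member as log2(CPM + 1), in 1 panel per library, with classes as rows and genes as columns. The rows are the named cell classes without the neuron-like cells, and the unnamed *Sntg1*/*Opcml* and *Ccl21a*/*Ccl19* clusters. The highest WT level of *Rspo2*, in neuron-like cells (59.5 CPM), is therefore not shown. Small numbers give the cells of each class. In each library *Wnt2* is highest in interstitial progenitor-like cells (122, 135 and 219 CPM), *Wnt4* in hormone-sensing luminal-like cells, *Wnt5b* in luminal progenitor-like cells and *Wnt6* in Schwann-like cells (153, 92.2 and 143 CPM).

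Across all stromal cells, ratios over WT were called past 2-fold at an absolute log2 ratio of at least 1, and all 10 members had the 100 UMIs needed. In *Pd*-KO, 5 of the 10 were higher past 2-fold, beside 17.6% of all genes, and none was lower, beside 8.95%. Centred on span, the same 5 were higher, beside 10.7% of all genes, and none was lower, beside 8.59%. In *Mgp*-KO, 2 of 10 (*Wnt5b* and *Rspo2*) were higher, beside 15.5%, and none lower, beside 4.67%. Centred on span, 1 (*Rspo2*) was higher, beside 9.25%, and none lower, beside 5.53%. The *Mgp*-KO counts were thus near the background, and the *Pd*-KO counts above it. Since the members were chosen with earlier results of these data known, this is a description only. The stroma-wide counts also hold the number of progenitor-like cells, as given below.

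The 5 members higher in *Pd*-KO stroma were 4 ligands and 1 R-spondin. *Wnt2* went from 53.8 CPM in WT to 88.6 in *Mgp*-KO and 151 in *Pd*-KO, with log2 ratios of 0.57 (0.52 to 0.62) and 1.30 (1.25 to 1.35). *Wnt11* went from 9.43 to 16.6 and 25.9 CPM, with ratios of 0.66 (0.55 to 0.78) and 1.27 (1.16 to 1.38). *Wnt10b* was at 5.88, 7.11 and 15.4 CPM, with ratios of 0.12 (-0.04 to 0.29) and 1.20 (1.06 to 1.34). These 3 genes are short, and their span-centred values were close, at 0.41, 0.74 and 0.35 in *Mgp*-KO and 1.04, 1.33 and 1.54 in *Pd*-KO. For the long genes the span-centred values were smaller: *Wnt5b* (2.18, 6.50 and 13.4 CPM) had 1.42 and 2.44, and 0.62 and 1.46 span-centred, and *Rspo2* (0.877, 4.50 and 8.12 CPM) had 2.21 and 3.02, and 1.36 and 2.07 span-centred. The *Mgp*-KO ratio of *Rspo2* was 3.73 in female cells and 1.66 in male cells (2.81 and 0.79 span-centred), in a library with 60.6% female cells against 35.1% in WT. *Wnt5a* stayed near WT with -0.27 and 0.16, and *Rspo1* had -0.10 (-0.30 to 0.09) and -0.63 (-0.87 to -0.40). *Rspo3* changed sign with the centring, from 0.02 and 0.21 to -0.45 and -0.36 span-centred.

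**Figure D3:**
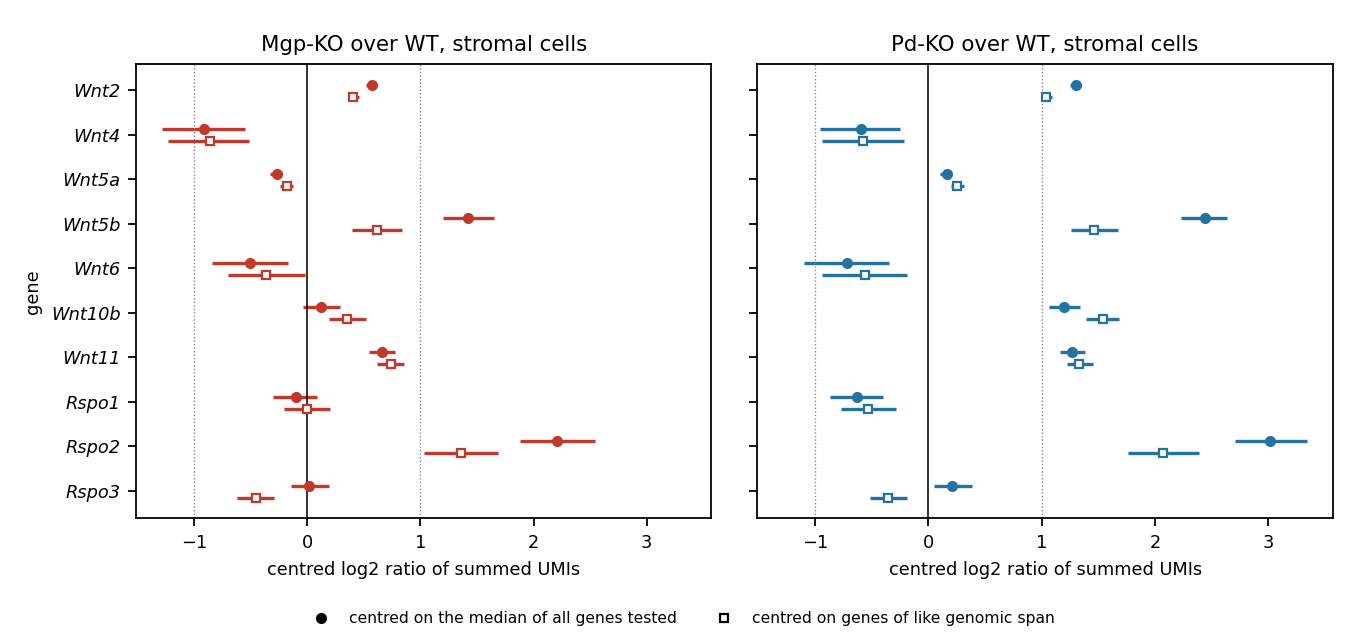
Log2 ratio over WT of each member in stromal cells, for *Mgp*-KO and *Pd*-KO, centred on all genes and on genes of like span, with 95% counting intervals and lines at 2-fold. In *Pd*-KO, *Wnt2*, *Wnt5b*, *Wnt10b*, *Wnt11* and *Rspo2* lie above 1 on both scales (1.30, 2.44, 1.20, 1.27 and 3.02 centred on all genes).

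Progenitor-like cells were 21.6% of the WT library and 41.8% and 44.7% of the knockout libraries, so a stroma-wide ratio of a gene of these cells holds their number as well as their content. Within the class the *Pd*-KO ratios were smaller: 0.65 (0.59 to 0.70) for *Wnt2*, 0.32 (0.17 to 0.48) for *Wnt10b* and 0.97 (0.82 to 1.12) for *Wnt11*. The *Mgp*-KO ratios were -0.01 (-0.07 to 0.05), -0.37 (-0.55 to -0.19) and 0.27 (0.10 to 0.43). *Rspo2* kept 2.37 and 2.93 (1.64 and 1.97 span-centred) in *Mgp*-KO and *Pd*-KO, and *Rspo3* had -0.54 and -0.58 (-0.92 and -1.13 span-centred).

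The progenitor-like class joined 2 clusters that the libraries filled unequally. The *Pi16*/*Ly6c1* cluster held 1279 WT, 2013 *Mgp*-KO and 1255 *Pd*-KO cells, and the *Ano3*/*Sema3c* cluster 989, 3249 and 2683, so most WT cells of the class were in the former and most knockout cells in the latter. The effect of span also differed between them. In the *Pi16*/*Ly6c1* cluster the 10% of genes with the longest span had a median ratio of 0.29 in *Mgp*-KO and 0.43 in *Pd*-KO, against 0.09 and -0.03 in the 10% with the shortest, but in the *Ano3*/*Sema3c* cluster 1.61 and 1.90 against -0.13 and -0.31. Both clusters rest on the integration of the libraries with Harmony. Without it, the progenitor-like cells fell largely by library: 1 cluster held 2288 WT, 16 *Mgp*-KO and 23 *Pd*-KO cells, another 46, 2358 and 1118, and another 0, 412 and 3081. The comparison of libraries inside either cluster therefore had no counterpart without the integration.

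In the *Pi16*/*Ly6c1* cluster, where span mattered little, the *Pd*-KO ligands stood highest. *Wnt2* was at 99.8 CPM in WT (95.1 to 105), 154 in *Mgp*-KO (146 to 161) and 254 in *Pd*-KO (244 to 264). *Wnt11* was at 14.0 (12.3 to 15.9), 25.1 (22.2 to 28.4) and 45.8 CPM (41.5 to 50.4). *Wnt10b* was at 11.1 (9.60 to 12.8), 16.0 (13.7 to 18.7) and 28.5 CPM (25.1 to 32.2), beside its free level of 26.6 CPM in *Pd*-KO, and *Wnt5b* at 4.54 (3.58 to 5.67), 8.70 (6.99 to 10.7) and 15.2 CPM (12.8 to 18.0). For each of these 4 ligands the libraries were in the order WT, *Mgp*-KO, *Pd*-KO, with intervals apart. The *Pd*-KO log2 ratios were 1.24 (1.15 to 1.33) for *Wnt2*, 1.60 (1.37 to 1.84) for *Wnt11*, 1.25 (0.97 to 1.52) for *Wnt10b* and 1.64 (1.23 to 2.06) for *Wnt5b*, and 1.22, 1.63, 1.28 and 1.49 span-centred. *Wnt5a* (-0.10, -0.26 to 0.06) and *Rspo3* (-0.08, -0.53 to 0.35) did not differ beyond counting error. So 4 of the 6 members with enough UMIs were higher past 2-fold in *Pd*-KO, beside 3.52% of all genes, and none lower, beside 3.72%. In *Mgp*-KO none of 6 was past 2-fold, beside 2.35% of genes higher and 2.07% lower, with ratios of 0.51 for *Wnt2*, 0.73 for *Wnt11*, 0.42 for *Wnt10b* and 0.83 for *Wnt5b*. The count of 4 in *Pd*-KO was met under both other scalings, centred on span, in cells of at least 5000 UMIs and without likely doublets. In female cells 2 of 3 members with enough UMIs passed and in male cells 2 of 4, *Wnt2* and *Wnt11* in each. The shares of all genes under these alternatives are not given, so these counts are not read further.

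In the *Ano3*/*Sema3c* cluster the same ligands differed less. *Wnt2* was at 146, 128 and 209 CPM and *Wnt10b* at 21.9, 13.2 and 21.8 CPM in WT, *Mgp*-KO and *Pd*-KO, so that *Mgp*-KO was lowest for both. Their *Pd*-KO ratios were 0.34 (0.28 to 0.41) and -0.18 (-0.37 to 0.02), and that of *Wnt11* was 0.71 (0.51 to 0.91). Of the 2 clusters, *Rspo2* was higher in this one in both knockouts, at 1.10, 7.65 and 11.9 CPM (17, 197 and 367 UMIs) against 1.06, 2.74 and 1.11 in the *Pi16*/*Ly6c1* cluster, with ratios of 2.64 (1.93 to 3.45) and 3.25 (2.55 to 4.05), or 1.79 and 2.21 span-centred. *Rspo3* was lower in both knockouts, at 18.1, 8.93 and 10.2 CPM, with -1.16 (-1.42 to -0.91) and -1.0 (-1.24 to -0.76), or -1.57 and -1.61 span-centred. In *Pd*-KO 2 of 7 members (*Wnt5b* and *Rspo2*) were higher past 2-fold, beside 15.9% of all genes, and none lower, beside 2.85%, since *Rspo3* lay just inside the limit. In *Mgp*-KO 1 of 7 (*Rspo2*) was higher, beside 13.3%, and 1 (*Rspo3*) lower, beside 1.39%. *Wnt5b*, at 1.30 in *Pd*-KO, was at 0.40 when centred on span.

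**Figure D4:**
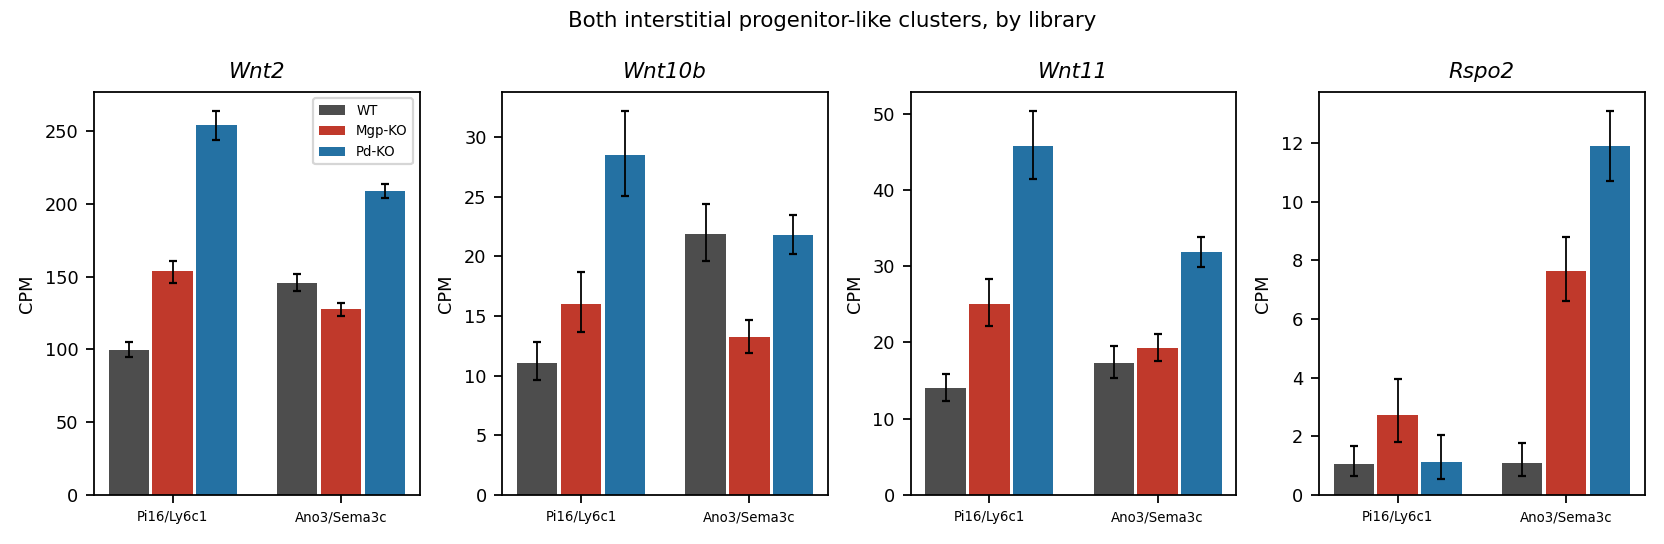
Levels of *Wnt2*, *Wnt10b*, *Wnt11* and *Rspo2* in the 2 interstitial progenitor-like clusters, as bars in CPM with 95% Poisson intervals, coloured by library. In the *Pi16*/*Ly6c1* cluster the ligands stand in the order WT, *Mgp*-KO, *Pd*-KO (*Wnt2* at 99.8, 154 and 254 CPM), and in the *Ano3*/*Sema3c* cluster *Rspo2* does (1.10, 7.65 and 11.9).

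Ratios in other classes ranged from negative values to past 2-fold. *Wnt2* in *Areg*-like cells had 0.27 in *Mgp*-KO and 0.90 in *Pd*-KO, and in *Col18a1* stromal-like cells 0.50 and -0.02. In cycling-like stroma *Wnt2* was higher in *Mgp*-KO (97.1 CPM against 29.8 in WT and 55.0 in *Pd*-KO, ratios 1.52 and 0.68). *Rspo1* in *Areg*-like cells had 0.36 in both knockouts, *Wnt6* in Schwann-like cells -0.60 and 0.02, and *Wnt4* in hormone-sensing cells 0.07 and -0.51. Vessels as a whole had 14.0, 22.6 and 44.4 CPM of *Wnt2*, below the free level of 14.8, 65.8 and 73.0 in each library. In WT the vessel level lay within the interval of the free level (8.62 to 23.7). Capillary endothelial-like cells had 5.64, 0 and 3.12 CPM. The part of free RNA in the vessel levels was not tested.

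RNA outside cells was measured in the barcodes of 10 to 100 UMIs. *Wnt2* was at 14.8, 65.8 and 73.0 CPM there, *Wnt5a* at 20.9, 40.5 and 53.8 and *Wnt11* at 5.22, 15.2 and 16.7. The free level of *Wnt2* was higher in the knockouts, as was its level over all cells (45.0, 80.2 and 135 CPM), and in none of the 3 libraries did it reach that of the progenitor-like cells. For 2 genes the free level lay above the level over all cells with intervals apart: *Wnt6* in WT, at 42.6 (31.5 to 56.4) against 3.57 CPM, and *Wnt10b* in *Pd*-KO, at 26.6 (21.4 to 32.8) against 13.8. The part of free RNA in the low levels of other classes was not tested.

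**Figure D5:**
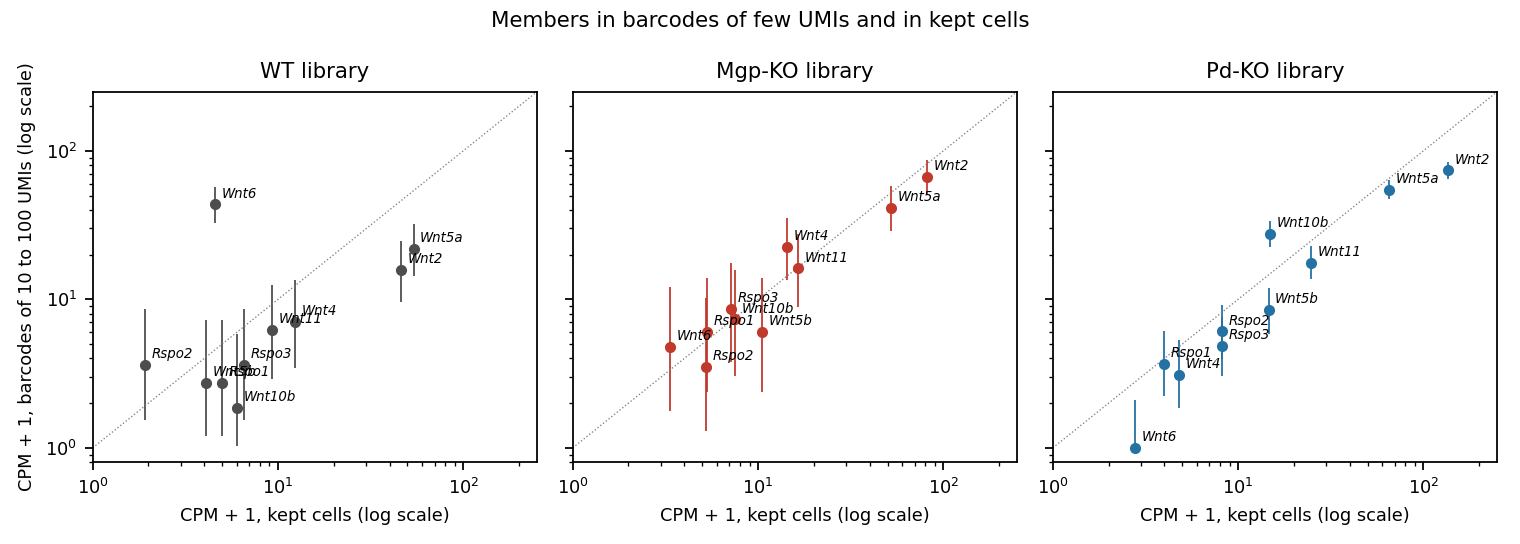
Level of each member in barcodes of 10 to 100 UMIs (free RNA) against its level over all kept cells, both as CPM + 1 on log axes, in 1 panel per library, with 95% Poisson intervals of the free level and a dotted line of equality. *Wnt6* in WT (42.6 against 3.57 CPM) and *Wnt10b* in *Pd*-KO (26.6 against 13.8) lie above the line with their intervals.

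The other genes of the pathway were read in stromal cells from lists of ligands, receptors, inhibitors and targets, 58 genes, of which 38 had enough UMIs. In *Mgp*-KO 11 of 38 were higher past 2-fold (beside the 15.5% of all genes) and 1 lower (beside 4.67%), with a median log2 ratio of 0.51, and in *Pd*-KO 14 were higher (beside 17.6%) and 5 lower (beside 8.95%), with a median of 0.58. Centred on span, 9 were higher and 1 lower in *Mgp*-KO (beside 9.25% and 5.53%, median 0.34), and 11 higher and 4 lower in *Pd*-KO (beside 10.7% and 8.59%, median 0.54). The counts of the smaller lists are read beside the same shares. Of 6 other ligands, *Wnt1* (0.313, 0.804 and 1.76 CPM), *Wnt2b* (0.365, 1.14 and 1.43) and *Wnt16* (1.54, 7.89 and 6.39) were higher past 2-fold in both knockouts on both scales. *Rspo4*, the remaining R-spondin, was lower in both, at 4.77, 1.76 and 0.288 CPM, with ratios of -1.59 and -4.24. *Wls*, the carrier that Wnt ligands need for secretion, had 0.64 and 0.62, and 0.06 and -0.15 centred on span, and neither of the 2 secretion genes passed.

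Receptors were mostly long genes, so the scales differed. Among 15 Frizzled genes and co-receptors, 4 were higher in *Mgp*-KO, with 4 higher and 1 lower in *Pd*-KO, and centred on span 3 were higher and 0 lower in each. *Fzd10* had 1.19 and 1.68, and 1.51 and 2.19 span-centred. *Ror1*, a receptor of WNT5A, was at 10.9, 130.4 and 102 CPM, and its ratios of 3.43 and 3.04 were 1.41 and 0.81 centred on span. *Ror2* had 2.22 and 2.25, and 1.03 and 0.81 centred on span. *Ryk* (105, 104 and 109.5 CPM) had the most UMIs of this list and ratios of -0.16 and -0.12. All 3 measured genes of the R-spondin receptor list were higher in both knockouts when centred on all genes, with *Lgr4* at 1.55 and 2.08, *Lgr5* at 2.49 and 2.13 and the E3 ligase *Znrf3* at 2.12 and 1.96. Centred on span 1 of them passed in *Mgp*-KO and 2 in *Pd*-KO, with *Lgr5* at 1.69 and 1.20 passing in both. Of 7 antagonists none passed in *Mgp*-KO, while 3 were higher and 1 lower in *Pd*-KO, and *Sfrp2*, the most abundant, had 393, 633 and 759.5 CPM and ratios of 0.54 and 0.77. Of 5 target genes of β-catenin signalling, 1 was higher and 0 lower past 2-fold in *Mgp*-KO, and 1 higher and 1 lower in *Pd*-KO, on both scales. The higher one was *Axin2* (3.66, 8.15 and 8.89 CPM). Its ratios were 1.01 (0.83 to 1.19) and 1.09 (0.91 to 1.28), with intervals on both sides of the limit, and 1.00 and 1.03 span-centred. The lower one was *Tcf7*, named after its values were seen (1.04, 1.99 and 0.455 CPM, ratios 0.78 and -1.38). *Apcdd1* had 18.3, 27.7 and 37.1 CPM and ratios of 0.45 and 0.84. These pathway values are stroma-wide and so also hold the number of progenitor-like cells. Within the interstitial progenitor-like class, centred on all genes, 0 of 3 target genes passed in *Mgp*-KO and 1 of 4 in *Pd*-KO. For Frizzled genes and co-receptors the counts were 2 of 14 and 5 of 15, and for antagonists 0 and 1 of 6. On the R-spondin receptor list 3 of 3 passed in each knockout. The share of all genes in this class is not given, so these counts are not read further.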

How the data were processed

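The deposited values are UMI counts for each gene in each barcode, before any filter or scaling, in 1 library per genotype. The submitters' processing notes name Cell Ranger 6.1.1 and the GRCm39 build, the paper's methods name mm10, and the file headers name version 4 (WT) and 7.1.0 (both knockouts); how intronic reads were counted is not given in the sources used here. Barcodes with at least 2000 UMIs and at most 10% mitochondrial UMIs were kept, and 426, 4 and 187 WT, *Mgp*-KO and *Pd*-KO barcodes failed the latter. The libraries held 184102026, 93212243 and 83942865 UMIs, of which 145242566, 89572427 and 76383468 lay in kept cells.

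Cells were log-normalized, reduced to 30 principal components, integrated by Harmony (written again in Python 3.11.15 with numpy 2.4.6 and scikit-learn 1.9.0) and clustered by leidenalg 0.10.2 at resolution 0.5, first into compartments and then within each. Clusters were named from marker lists, by thresholds set after the clusters had been seen, and otherwise by their leading genes. Doublets were kept. The 8% of cells with the highest doublet score were removed in an alternative, since an automatic threshold had marked almost none in the *Mgp*-KO library. UMIs were summed per class and library, with exact Poisson intervals for CPM, exact binomial intervals for shares and exact conditional binomial intervals for ratios (scipy 1.17.1, 95%), all for counting error only. Log2 ratios were centred on the median of all genes with at least 100 UMIs, or on the 200 genes nearest in genomic span (GENCODE M21, GRCm38). The ratios centred on all genes and their intervals were checked on simulated stromal sums of *Pd*-KO and WT, drawn with counting error and without a trend with span. Clustering, naming, span-centring and thinning were not checked in this way. No test was made with 1 library per genotype. Named pathway genes are those past 2-fold in the same direction in both knockouts and the most abundant of each list. The members and lists were chosen with earlier results of these data known.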

Additional observations from a re-analysis of the deposited data

Results flagged for a closer look

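Barcodes of 10 to 100 UMIs hold too little RNA for a cell and entered no ratio over WT. They were richer in 2 members than the kept cells of the same library. *Wnt6* was at 42.6 CPM in these barcodes of the WT library (31.5 to 56.4) and at 3.57 CPM over its kept cells, with 3.80 and 0 CPM in the same barcodes of *Mgp*-KO and *Pd*-KO. *Wnt10b* was at 26.6 CPM in those of *Pd*-KO (21.4 to 32.8) and at 13.8 CPM over its kept cells, with 0.870 and 6.33 in WT and *Mgp*-KO. The source of this RNA was not tested.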

How the results depend on the processing

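No paired analysis was possible because each genotype was 1 library, and for the same reason no replicate could be left out. Of the counts of stromal members past 2-fold, that of *Mgp*-KO (2) was 1 when centred on span and 0 in male cells centred on span, and that of *Pd*-KO (5) was 4 or 5 under every alternative run. In the clusters, where all alternatives were chosen after seeing the data, as were the span-centred counts by sex, the *Pi16*/*Ly6c1* count of *Pd*-KO (4) was 2 in female cells and 2 in male cells, and that of *Mgp*-KO (0) was 3 with no minimum of UMIs per gene. In the *Ano3*/*Sema3c* cluster the count of *Mgp*-KO (2 in either direction) was 1 in male cells and 4 with no minimum, and that of *Pd*-KO (2) was 4 with no minimum. Apart from span-centring over all stromal cells, the shares of all genes under the alternatives are not given. Their counts are therefore not read further. No called ratio of a member changed sign under the alternatives run. *Rspo2* in *Mgp*-KO stroma was 3.73 in female cells and 1.66 in male cells (2.81 and 0.79 centred on span), against 2.21 over all cells. Neuron-like *Rspo2* in WT was 35.5 CPM in cells of at least 5000 UMIs, against 59.5. Without Harmony, the progenitor-like cells fell largely by library, so the comparisons inside its clusters had no counterpart, and the *Wnt10b* level had no matching class. With few cells, the epithelial, Schwann-like and venular levels are limited by their UMIs.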

Other observations

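The genes most like each member were ranked by Pearson correlation of log2(CPM + 1) over the 16 named classes of the WT library among 13920 genes, as a description only, since the classes share 1 library. *Wnt2* was closest to the fibronectin gene *Fn1* (0.92), the fibrillin gene *Fbn1* (0.90) and *Mfap5* (0.88), all of extracellular microfibrils or matrix. *Wnt10b* was closest to *Duoxa1* (0.93), the progenitor marker *Pi16* (0.92) and *Akr1c18* (0.89), and *Wnt11* to *Slc38a4* (0.89), *Il17ra* (0.88) and *Ccdc42* (0.88). *Wnt5a* was closest to *Cnpy2* (0.87), *Mt2* (0.87) and *Meis1* (0.86), and *Wnt4* to *Syne4* (0.95), *Rasef* (0.95) and *Bcl2l14* (0.94). The genes nearest to *Wnt5b* were *Tgfb3* (0.83), *Vdr* (0.78) and *Pdlim3* (0.78), and those nearest to *Wnt6* were *Reln* (0.87), *Cep97* (0.86) and *Adamts20* (0.86). *Rspo2*, led by the WT neuron-like cells, was closest to *Phf24* (0.99), the neurofilament gene *Nefm* (0.98) and the neuropeptide gene *Tac1* (0.97). *Rspo3* was closest to *Pdia5* (0.88), *Pam* (0.86) and *Bmp4* (0.84), and *Rspo1* to *Sgms2* (0.78), *BC004004* (0.78) and *2810433D01Rik* (0.74).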
